A study of Mus musculus with 48 samples.

Results

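The liver of undisturbed mice was compared at Zeitgeber time (ZT) 13, 1 h into the dark phase, and at ZT1, 1 h into the light phase, where ZT0 is lights on. The comparison used the 6 control liver arrays labelled ZT13 and ZT1, 3 mice per time point, out of 48 arrays in the series, and covered the 24261 of 28815 probe sets that carry a gene symbol (21352 different symbols). The animals were wild-type males, with the strain labelled Bl6J (C57Bl6/J in the study's text) and an age labelled 10-12 weeks, for which the methods give a range that reaches higher, housed in 12 h light and 12 h dark with free access to food. Nothing was done to the control mice at either time point. The study set such mice against mice under timed sleep restriction (TSR), which were stopped from sleeping by gentle handling in the first 6 h of light on 5 days, left to sleep for 2 days and stopped again on 5 days, and sampled liver and white adipose tissue at ZT1, ZT7, ZT13 and ZT19 on Affymetrix Mouse Gene 1.0 ST arrays. Each array holds the RNA of whole liver from 1 mouse, and one animal was killed for each array, so no animal was followed over time. Control liver arrays of the same time point carry adjacent array numbers (43 to 45 at ZT13, 37 to 39 at ZT1). Time of day and order of these arrays therefore cannot be told apart. The median signal was 84.54 to 97.32 on the ZT13 arrays and 86.96 to 96.29 on the ZT1 arrays, and 54.2 to 68.3% of probe sets at ZT13 and 57.3 to 59.6% at ZT1 carried the authors' call of detected. Pearson's r of the log2 signals was taken over the 12803 of these probe sets with a liver mean above 97.4, the median over probe sets. It was 0.985 to 0.991 between arrays of one time point and 0.969 to 0.976 between arrays of different time points. With 3 arrays a group the number of mice limits the precision.

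The circadian clock of the liver cell is a feedback loop of transcription. Arntl (Bmal1) pairs with Clock or Npas2 and binds E-box elements, and this activates the repressors of the Per and Cry families, the nuclear receptors Nr1d1 and Nr1d2 (Rev-erbα and Rev-erbβ) and the D-box factors Dbp, Tef and Hlf. Nr1d1 and Nr1d2 in turn repress Arntl, Npas2, Clock and Nfil3 through ROR elements, and many genes of liver metabolism follow one of these elements or the daily rhythms of feeding, glucocorticoids and body temperature.

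The promoters of the 4 marker genes chosen for this comparison, Per1, Arntl, Usp2 and Npas2, are shown here to be read for these elements. Of the 4 windows shown, 2 hold one of them. The windows run 5′ to 3′ on the strand of the gene, from 250 bases before to 50 bases after the annotated start (RefSeq, GRCm38.p6), and capitals mark the motif. Per1 (higher at ZT13, chr11:69098699-69098998, plus strand) holds an E-box, CACGTG, 166 bases before its start. Arntl (lower at ZT13, chr7:113207261-113207560, plus strand) holds the REV-ERB and ROR element TAGGTCA 30 bases after its start. Usp2 (higher, chr9:44084670-44084969, plus strand) and Npas2 (lower, chr1:39194022-39194321, plus strand) are shown in full lower case, since none of the 6 motifs searched lies in their windows. Per1 and Arntl have 2 annotated windows each, and the window not shown held none of these motifs in either gene.
Per1: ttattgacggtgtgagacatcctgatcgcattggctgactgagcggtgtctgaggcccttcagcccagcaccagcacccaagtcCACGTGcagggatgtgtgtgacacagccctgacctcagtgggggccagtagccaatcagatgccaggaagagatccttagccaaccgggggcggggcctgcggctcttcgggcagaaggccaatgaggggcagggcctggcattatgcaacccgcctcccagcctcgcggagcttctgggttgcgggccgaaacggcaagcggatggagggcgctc
Arntl: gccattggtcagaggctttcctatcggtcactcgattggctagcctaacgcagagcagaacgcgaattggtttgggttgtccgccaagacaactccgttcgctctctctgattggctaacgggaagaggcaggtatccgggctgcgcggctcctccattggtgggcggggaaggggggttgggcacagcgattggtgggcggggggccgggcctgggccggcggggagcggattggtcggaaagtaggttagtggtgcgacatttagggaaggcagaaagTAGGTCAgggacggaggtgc
Usp2: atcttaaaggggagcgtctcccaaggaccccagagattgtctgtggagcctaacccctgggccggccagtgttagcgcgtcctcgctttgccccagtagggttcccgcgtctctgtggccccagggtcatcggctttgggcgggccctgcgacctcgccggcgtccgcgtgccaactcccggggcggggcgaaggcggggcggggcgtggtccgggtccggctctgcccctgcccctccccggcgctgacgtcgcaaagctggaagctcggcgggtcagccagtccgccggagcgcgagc
Npas2: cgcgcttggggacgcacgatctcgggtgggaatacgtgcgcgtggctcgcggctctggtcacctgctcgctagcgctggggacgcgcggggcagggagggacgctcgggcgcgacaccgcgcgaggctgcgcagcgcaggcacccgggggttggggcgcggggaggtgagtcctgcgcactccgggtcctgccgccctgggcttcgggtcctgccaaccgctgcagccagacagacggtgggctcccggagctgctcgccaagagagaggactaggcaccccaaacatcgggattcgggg

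For 3 further genes, chosen after their values were seen because their windows hold the elements of the loop most densely or close to the start, a shorter stretch is given. Ciart (higher at ZT13, chr3:95882249-95882368, minus strand) has 3 copies of the E-box within 120 bases. Per3 (higher, chr4:151044791-151044890, minus strand) has a pair of D-boxes, TTATGTAA, within 100 bases. Nfil3 (lower, chr13:52981000-52981099, minus strand) has a ROR element 12 bases before its start.
Ciart: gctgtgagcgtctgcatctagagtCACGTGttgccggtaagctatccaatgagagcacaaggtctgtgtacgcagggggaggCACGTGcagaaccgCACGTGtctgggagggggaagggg
Per3: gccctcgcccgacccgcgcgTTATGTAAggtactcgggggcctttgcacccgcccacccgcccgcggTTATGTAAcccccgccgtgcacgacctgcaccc
Nfil3: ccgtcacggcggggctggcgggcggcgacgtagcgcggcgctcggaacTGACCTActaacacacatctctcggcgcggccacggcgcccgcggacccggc

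The motifs were searched as letters on both strands, and none overlapped another in the stretches shown. They were the E-box CACGTG, the E-box variant CACGTT, the D-box TTATGTAA, the REV-ERB and ROR element TAGGTCA, the heat shock element TTCNNGAA and the cAMP element TGACGTCA. The table gave windows for 92 genes that were higher and 144 genes that were lower at ZT13 in the test described next. CACGTG was found in 20 of 123 windows (16.3%) of genes higher at ZT13, in 11 of 211 windows (5.21%) of genes lower at ZT13 and in 7.15% of all 32851 windows of the table. The D-box stood in 5 windows (4.07%) of the higher genes, in 0 of the 211 windows of the lower genes and in 0.938% of all windows. TAGGTCA stood in 1 window (0.813%) of the higher genes, in 10 windows (4.74%) of the lower genes and in 2.61% of all windows. The heat shock element was found in 4.07% of windows of higher genes, 6.16% of windows of lower genes and 8.52% of all windows. The E-box variant stood in 3.25% of windows of higher genes, 4.74% of windows of lower genes and 4.68% of all windows, and the cAMP element in 1.63%, 0.948% and 1.79% of the same windows. These shares describe letters in a 300-base window and were not tested.

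The ranking here covers probe sets called in the test below whose higher group's mean was above 97.4. Among them, the largest rises at ZT13 were those of Ciart, Dbp, Usp2 and Per1. The largest falls were those of Npas2, Elovl3, Igfbp1 and Arntl, and most of these genes belong to the clock or are driven by it. Egr1 fell more than Elovl3 on the log2 scale but missed the threshold. Values are normalized signals in array units, and differences are of their log2. At an adjusted p under 0.05 (limma's moderated test, Benjamini-Hochberg over all 24261 probe sets), 339 probe sets (1.4%) for 305 different symbols were called, of which 129 (0.532%) were higher and 210 (0.866%) lower at ZT13. Among these, 59 of the higher and 65 of the lower probe sets differed at least 2-fold, and the median fold was 1.96 for the higher and 1.75 for the lower ones. The arrays of ZT13 and ZT1 did not overlap for any of the 339. They also did not overlap for 4801 probe sets (19.8%) of all those tested, 2090 (8.61%) with ZT13 higher and 2711 (11.2%) with ZT13 lower, and the median log2 difference of all probe sets was -0.015. One gene, 4932438A13Rik, accounted for 16 of the lower probe sets. Of all 24261 probe sets, 3118 had an unadjusted p under 0.05 by limma's test. Counts below of list members that do not overlap or have an unadjusted p under 0.05 stand beside these values for all probe sets.

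**Figure D1:**
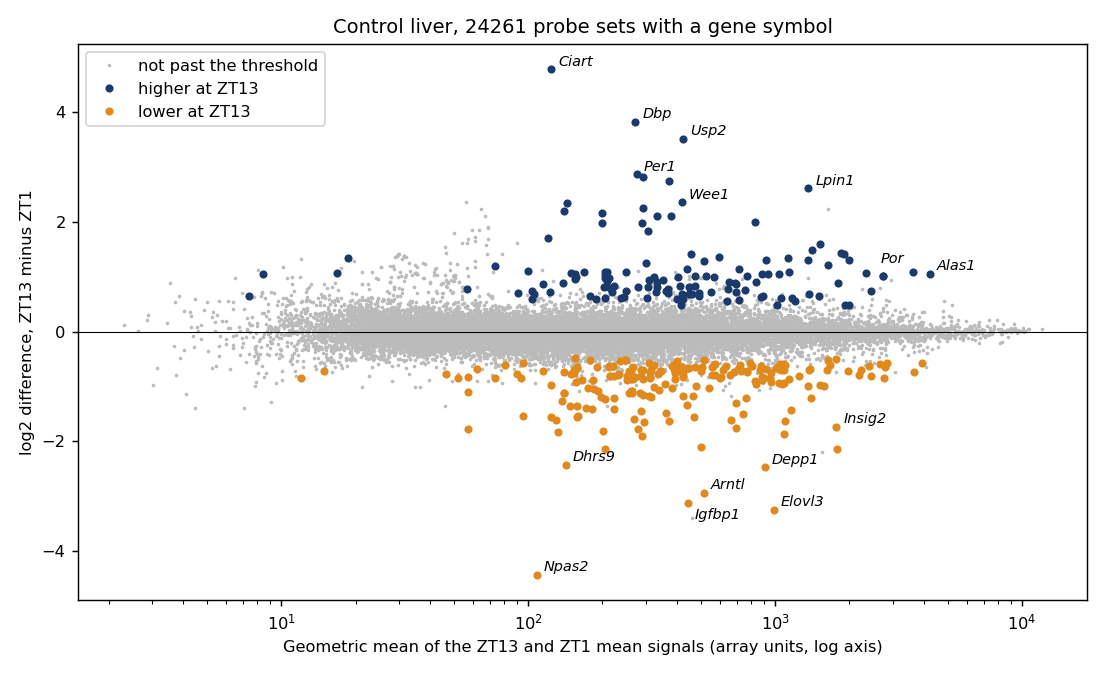
Each point is 1 of the 24261 probe sets with a gene symbol in control liver, with the geometric mean of the ZT13 and ZT1 mean signals on the x axis (array units, log axis) and the log2 difference, ZT13 minus ZT1, on the y axis. Blue points (129) were higher and orange points (210) lower at ZT13 at an adjusted p under 0.05, and the named clock genes Ciart, Dbp, Usp2 and Npas2 lie farthest from 0.

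The number of calls depended on all 6 arrays and on the filter. The count was 113 without ZT1 replicate 1, 71 without ZT1 replicate 2 and 82 without ZT1 replicate 3, and 93, 88 and 124 without ZT13 replicates 1, 2 and 3, each in turn. Of the 339 probe sets, 65 (30 higher, 35 lower) were called in all 6 of these fits and 193 were called in none of them. A fit limited to the 12803 probe sets whose liver mean exceeded 97.4, the median over probe sets, called 1145. A call is said below to hold without any 1 array where it passed in all 6 of these fits.

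Of the activators of the clock, Npas2, Arntl and Clock were lower at ZT13. Npas2 read 27.2, 22.6 and 20.3 on the 3 ZT13 arrays, against 549, 517 and 441 on the 3 ZT1 arrays. This was the largest fall of all called probe sets, and Npas2 was not detected above background on any ZT13 array, so that the difference was at least 21.6-fold (log2 difference -4.43 ± 0.14 SE, adjusted p = 0.000364). Here and below, such a bound sets the mean of the brighter group against, on each array of the other group, the higher of the gene's own signal and the lowest signal of any detected probe set (1 to 2.02). For the genes named, their own signal was the higher, so each bound equals the plain fold and carries its error. The words at least thus only mark a gene not detected at its dimmer time. The bound rests on the authors' detection calls, which do not always follow the signal. Of the 41 called probe sets not detected in one group, 4 were not detected at their brighter time and give no bound, and Slc37a4 was not detected at ZT1 at a mean signal of 780. Arntl read 116, 234 and 219 at ZT13, against 1460, 1314 and 1396 at ZT1. All ZT13 arrays lay far below all ZT1 arrays, and the lowest ZT13 array stood clearly under the other two (7.66-fold lower, log2 difference -2.94 ± 0.26 SE, adjusted p = 0.0056).

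Both calls held without any 1 array. Clock, which pairs with Arntl, fell too, with 771 ± 120 at ZT13 and 1480 ± 68.1 at ZT1 (SD, n = 3 each; 1.93-fold lower, adjusted p = 0.0272), and this call was lost without any 1 array other than ZT13 replicate 2 (adjusted p up to 0.137). Rora and Rorb, receptors that activate Arntl, differed by -0.28 and -0.01 on the log2 scale and did not pass the test (adjusted p = 0.309 and 0.994), and Rorb was not detected on any of the 6 arrays. Of the 6 activators, 3 thus fell and 0 rose, with 4 at an unadjusted p under 0.05.

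Of 14 measured repressors, 7 were higher at ZT13 and 0 lower. Per1, a Period repressor that also answers to glucocorticoids, read 794, 710 and 722 at ZT13, against 111, 89.4 and 105 at ZT1. The ZT13 arrays were close to each other and all far above the ZT1 arrays, on which Per1 was not detected above background (at least 7.32-fold higher, log2 difference 2.87 ± 0.11 SE, adjusted p = 0.000377). Ciart, a repressor of the Arntl and Clock pair, read 885, 535 and 554 at ZT13, against 24.4, 25 and 20.5 at ZT1. This was the largest rise of all called probe sets (27.6-fold, log2 difference 4.79 ± 0.21 SE, adjusted p = 0.000417), and a second probe set of Ciart, not detected at ZT1, differed at least 5.09-fold.

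Per3 was at least 4.58-fold higher (298 ± 26.6 at ZT13 and 65.2 ± 7.64 at ZT1), Nr1d2 4.01-fold (1654 ± 113 and 413 ± 43.8), Per2 3.55-fold (578 ± 87.2 and 162 ± 16.5) and Bhlhe40, another E-box repressor, 2.72-fold (3050 ± 250.3 and 1121 ± 97.97; SD, n = 3 each), with adjusted p between 0.00129 and 0.00284. These calls and those of Per1 and Ciart held without any 1 array. The seventh repressor, Cry2, was 1.65-fold higher (adjusted p = 0.0476), a call lost without each of the 6 arrays in turn. Nr1d1 read 1347, 820 and 920 at ZT13, against 479, 560 and 521 at ZT1, apart but with a wide spread at ZT13 (log2 difference 0.95 ± 0.19 SE, adjusted p = 0.0795). Cry1, the other cryptochrome, had 236 ± 27.6 at ZT13 and 299 ± 37.4 at ZT1 (SD, n = 3 each; adjusted p = 0.366), and Bhlhe41 differed by 0.61 on the log2 scale (adjusted p = 0.303). By the authors' call Bhlhe41 was detected on all 3 ZT13 arrays and on 1 ZT1 array. The casein kinases Csnk1d and Csnk1e phosphorylate the Per proteins. Csnk1d differed by -0.06 (adjusted p = 0.877), Csnk1e was at 142 ± 5.64 at ZT13 and 142 ± 3.13 at ZT1 (SD, n = 3 each; adjusted p = 0.995), and the ubiquitin ligase subunit Fbxl21, which acts on the Cry proteins, differed by -0.19 (adjusted p = 0.496). Csnk1e and Fbxl21 were not detected on any of the 6 arrays.

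**Figure D2:**
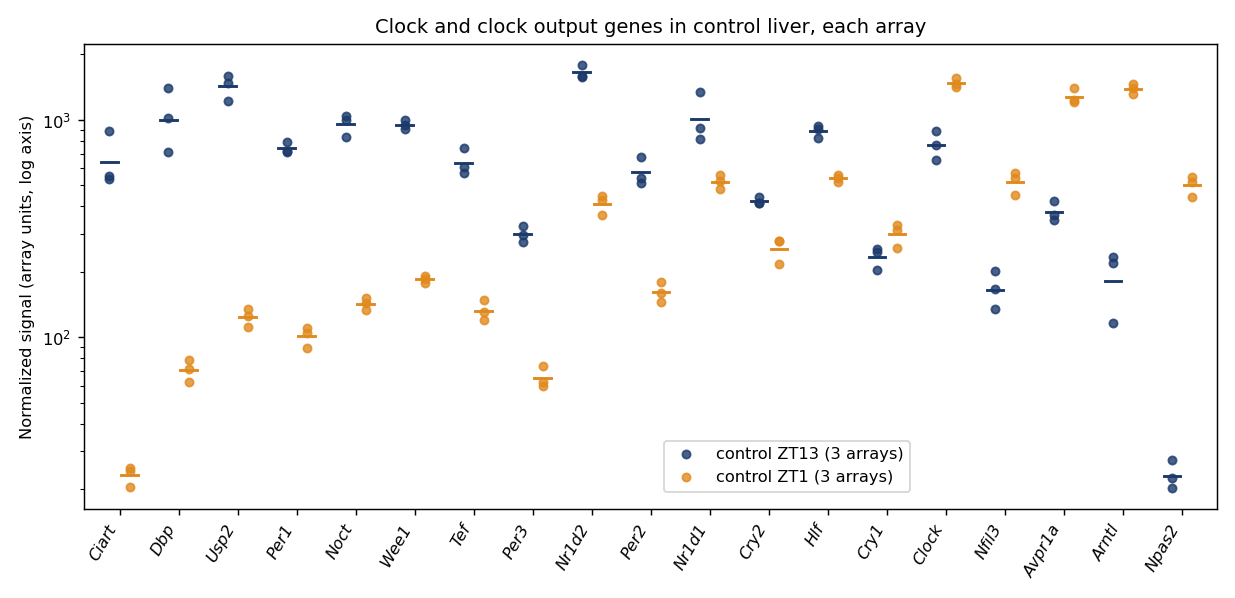
Normalized signal (array units, log axis) of 19 clock and clock output genes on each of the 3 control ZT13 arrays (blue, left) and the 3 control ZT1 arrays (orange, right), with the geometric mean of each group as a bar. From Ciart to Hlf every ZT13 array lies above every ZT1 array, and from Cry1 to Npas2 every ZT13 array lies below, with the smallest gap for Cry1.

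Among 14 genes driven by the clock, 10 were higher and 2 lower at ZT13, and the arrays did not overlap for any of the 14. Dbp, a D-box activator, read 1396, 709 and 1016 at ZT13, against 62.6, 78.9 and 71.3 at ZT1. The replicates at ZT13 spread over almost a 2-fold range, yet each was far above ZT1, where Dbp was not detected (at least 14.2-fold higher, log2 difference 3.83 ± 0.24 SE, adjusted p = 0.00169). Usp2, a deubiquitinase, read 1597, 1224 and 1476 at ZT13, against 112, 135 and 126 at ZT1. Its rise was 11.5-fold with a tight spread in both groups (log2 difference 3.52 ± 0.13 SE, adjusted p = 0.000364).

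Noct, a phosphatase of NADP(H) also called nocturnin, read 998, 1041 and 837 at ZT13, against 144, 134 and 151 at ZT1 (6.68-fold, log2 difference 2.74 ± 0.11 SE, adjusted p = 0.000417). Wee1, a kinase that holds back entry into mitosis, read 907, 944 and 994 at ZT13, against 191, 186 and 177 at ZT1 (5.13-fold, adjusted p = 0.000364). In both genes the difference was many times the distance between mice of one time point. Tef, the D-box partner of Dbp, was 4.78-fold higher (639 ± 92.8 at ZT13 and 133 ± 14.6 at ZT1), Nampt, which makes the NAD precursor nicotinamide mononucleotide, 2.53-fold (1801 ± 90.8 and 712 ± 60.5), and Por, the electron donor of cytochrome P450 enzymes, 2.13-fold (5291 ± 214 and 2482 ± 122; SD, n = 3 each).

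All of these calls held without any 1 array. The other rises were lost without each array in turn. These were Rgs16, a regulator of G protein signalling (3.27-fold, adjusted p = 0.0303), Alas1, the first enzyme of heme synthesis (2.08-fold, adjusted p = 0.0303), and Hlf, the third D-box activator (1.65-fold, adjusted p = 0.022). The 2 outputs that fell were Avpr1a, a vasopressin receptor (379 ± 40.8 at ZT13 and 1279 ± 105 at ZT1, adjusted p = 0.00178), and Nfil3, the D-box repressor (168 ± 33.5 and 520 ± 62.6; SD, n = 3 each; adjusted p = 0.00977). Avpr1a held without any 1 array, and Nfil3 did not hold without ZT1 replicate 2, ZT1 replicate 3 or ZT13 replicate 2 (adjusted p up to 0.0622). Gys2, the liver glycogen synthase, and Lonrf3 differed by 0.57 and -0.37 on the log2 scale and did not pass (adjusted p = 0.0668 and 0.366).

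The other 2 times show where ZT13 and ZT1 stand in the day of these mice. Of the 129 higher probe sets, 116 had their highest control mean at ZT13, 9 at ZT7 and 4 at ZT19, and 103 had their lowest at ZT1. Of the 210 lower probe sets, 173 were highest at ZT1 and 182 lowest at ZT13. The direction of these counts follows in part from how the probe sets were chosen. Usp2 went through 124 ± 11.6, 507 ± 164, 1432 ± 190 and 538 ± 11.1 at ZT1, ZT7, ZT13 and ZT19 (SD, n = 3 each), a single high point at ZT13. Npas2 was at 502 ± 55.5, 35.7 ± 7.41, 23.4 ± 3.53 and 55.6 ± 4.58 at the same times, high at ZT1 alone. Dbp, with 1162 ± 104 at ZT7 and 1040 ± 344 at ZT13, and Nr1d2, with 1875 ± 131 and 1654 ± 113, had similar means at both of these times. Nr1d1 reached 3262 ± 542 at ZT7 and 128 ± 6.71 at ZT19 (SD, n = 3 each), with ZT13 and ZT1 between these values.

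**Figure D3:**
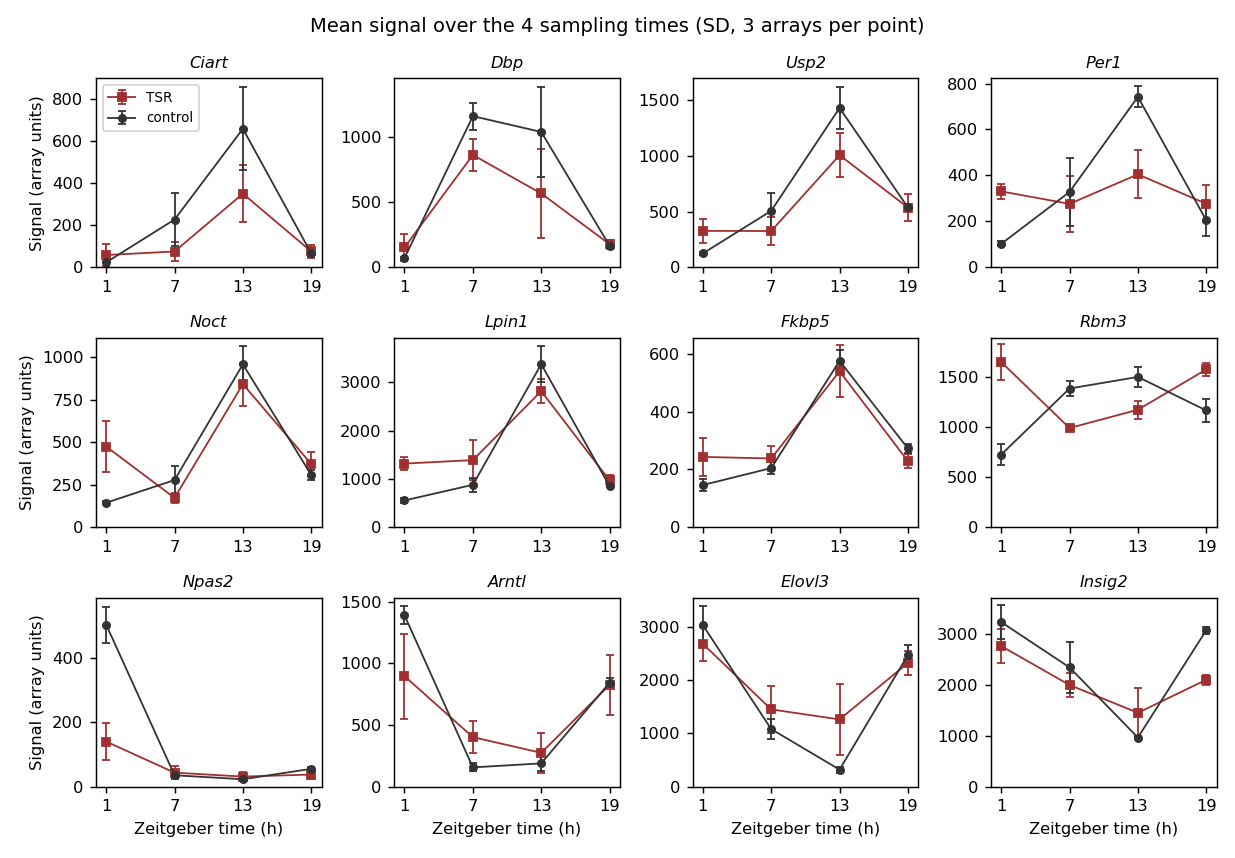
Mean signal (array units, linear axis, SD over 3 arrays) of 12 genes at ZT1, ZT7, ZT13 and ZT19 in TSR (red squares) and control liver (dark circles). In control liver Ciart, Usp2, Per1, Noct, Lpin1, Fkbp5 and Rbm3 are highest at ZT13, Dbp is about level at ZT7 and ZT13, and Npas2, Arntl, Elovl3 and Insig2 are highest at ZT1.

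Genes that answer to glucocorticoids were divided. Of 21 measured, 6 rose, 2 fell and 13 did not pass (list median 0.32 on the log2 scale, against -0.015 over all probe sets). The arrays did not overlap for 11 with ZT13 higher and 2 with ZT13 lower, against 8.61% and 11.2% of all probe sets. Besides Per1 and the phosphatidate phosphatase Lpin1, the rises were the chaperone Fkbp5 (533, 607 and 588 at ZT13, against 166, 125 and 146 at ZT1; 3.98-fold, adjusted p = 0.00172), the metallothionein Mt2 (4.33-fold), the transcription factor Zbtb16 (at least 2.67-fold, not detected at ZT1) and Tsc22d3, also called Gilz (at least 1.71-fold, not detected at ZT1, adjusted p = 0.0234). All but Tsc22d3 held without any 1 array, and Tsc22d3 was lost without each. The 2 falls were Cdkn1a, an inhibitor of the cell cycle (91.6 ± 7.65 at ZT13 and 272 ± 45.7 at ZT1; SD, n = 3 each; adjusted p = 0.0072), and Igfbp1, which binds insulin-like growth factors.

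Igfbp1 read 157, 137 and 125 at ZT13, against 697, 2465 and 1038 at ZT1. Every ZT1 mouse was above every ZT13 mouse, but the ZT1 mice differed by more than 3-fold among themselves (8.72-fold lower, log2 difference -3.12 ± 0.43 SE, adjusted p = 0.0269). Its call was lost without ZT1 replicate 3 or any 1 ZT13 array (adjusted p up to 0.112). The gluconeogenic enzyme Pck1 differed by 0.49 and the tyrosine aminotransferase Tat by 0.14 on the log2 scale (adjusted p = 0.246 and 0.689).

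Of the metallothioneins, small metal-binding proteins, Mt2 rose and Mt1 did not pass. Mt2 read 804, 573 and 699 at ZT13, against 168, 148 and 160 at ZT1 (adjusted p = 0.00178). Mt1 read 3475, 2937 and 2563 at ZT13, against 1982, 308 and 415 at ZT1. A single ZT1 mouse, replicate 1, stood near the ZT13 level of Mt1, and the difference did not pass (log2 difference 2.23 ± 0.65 SE, adjusted p = 0.209), while without this array the adjusted p was 0.00644. In the same list of 8 genes, the transporter Slc30a10 was 2.81-fold lower (216 ± 20.4 at ZT13 and 605 ± 28.3 at ZT1; SD, n = 3 each; adjusted p = 0.00228), and the zinc exporter Slc30a1 differed by 0.50 on the log2 scale (adjusted p = 0.0848).

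Egr1, an early growth response transcription factor, had a wide spread at ZT1 as Igfbp1 did. Egr1 read 210, 95.7 and 96.9 at ZT13, against 585, 2708 and 1455 at ZT1. The ZT1 mice were all higher but ranged over more than 4-fold, and the difference of -3.40 ± 0.58 SE on the log2 scale missed the threshold (adjusted p = 0.0503, and 0.0324 without ZT1 replicate 1). By the authors' call Egr1 was detected on 1 ZT1 array and on no ZT13 array. Of the 23 immediate early genes measured, the one that passed was Klf10 (2.13-fold higher, adjusted p = 0.0269, lost without each array), with 3 members apart and higher, 4 apart and lower and a list median of -0.04.

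Rbm3, a cold-inducible RNA-binding protein, was higher at ZT13 on 3 probe sets. These gave nearly the same log2 differences (1.05 to 1.06), and whether they are independent measurements is not known. The brightest of them read 1614, 1420 and 1466 at ZT13, against 842, 654 and 674 at ZT1 (2.08-fold, adjusted p = 0.016). ZT1 replicate 1 was the highest of its group, and all 3 calls held without it but not without any other array (adjusted p up to 0.105). Cirbp, the other cold-inducible protein, was at 138 ± 24.5 at ZT13 and 140 ± 5.65 at ZT1 (SD, n = 3 each; adjusted p = 0.971). Of 24 heat shock chaperones 0 passed limma's test and 4 had an unadjusted p under 0.05, with 5 apart and higher, among them Dnaja1 (0.43 on the log2 scale, adjusted p = 0.149), and 1 apart and lower.

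Lipid metabolism held both large rises and large falls. Lpin1, which makes diacylglycerol for triglyceride synthesis, read 2977, 3723 and 3437 at ZT13, against 550, 595 and 508 at ZT1 (6.12-fold, log2 difference 2.61 ± 0.12 SE, adjusted p = 0.000474). Elovl3, an elongase of very long fatty acids, read 354, 259 and 353 at ZT13, against 2653, 3352 and 3083 at ZT1 (9.46-fold lower, log2 difference -3.24 ± 0.16 SE, adjusted p = 0.000722). The groups lay far apart in opposite directions, and both calls held without any 1 array. Of 28 measured genes of fatty acid and triglyceride synthesis, the only other call was Thrsp, a regulator of lipogenesis (2.46-fold higher, adjusted p = 0.0101, lost without ZT1 replicate 1, ZT13 replicate 1 or ZT13 replicate 2), and 10 members lay apart and higher against 9 apart and lower (median -0.02). Acss2, which makes acetyl-CoA from acetate, differed by -0.57 (adjusted p = 0.0503).

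Mfsd2a, a transporter of lysophosphatidylcholine, was among the 10 largest rises with 711, 927 and 675 at ZT13, against 125, 116 and 88.4 at ZT1 (7.03-fold, adjusted p = 0.00169). In cholesterol metabolism, Insig2, which retains the SREBP proteins in the endoplasmic reticulum, read 977, 999 and 932 at ZT13, against 2911, 3594 and 3216 at ZT1 (3.33-fold lower, adjusted p = 0.00153). Both held without any 1 array. Of the 25 measured genes of cholesterol synthesis and its feedback, 7 lay apart and higher and 4 apart and lower (list median 0.05). Of 26 genes of bile acid metabolism, the bile salt export pump Abcb11 was 1.57-fold lower (2227 ± 27.1 at ZT13 and 3491 ± 93.99 at ZT1; SD, n = 3 each; adjusted p = 0.0195, lost without each array). Cyp7a1, the rate-limiting enzyme of bile acid synthesis, had 3486 ± 142 and 2022 ± 379 (SD, n = 3 each) and did not pass (adjusted p = 0.0628).

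In fat burning, the largest difference was that of Pdk4, and in glucose handling transporters and a regulator of glycolysis rose. Pdk4, a kinase that shuts off pyruvate dehydrogenase, read 99.2, 105 and 86.2 at ZT13, against 433, 546 and 328 at ZT1 (4.42-fold lower, adjusted p = 0.0056), and held without any 1 array. Of 38 measured genes of fatty acid oxidation, the other calls were Plin2, a lipid droplet protein (1.75-fold lower, adjusted p = 0.0115), and the nuclear receptor Ppara (1.40-fold higher, adjusted p = 0.0456), while 15 lay apart and higher and 4 apart and lower (median 0.10). Plin2 was lost without any 1 array other than ZT13 replicate 3, and Ppara without each. Of 30 genes of glycolysis and gluconeogenesis, 4 rose and 0 fell, with 12 apart and higher and 3 apart and lower (median 0.10).

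These 4 were Slc37a4, the glucose 6-phosphate transporter (at least 2.12-fold, not detected at ZT1, adjusted p = 0.00482), Pfkfb3, which makes the activator of phosphofructokinase (4.31-fold, adjusted p = 0.0158), the glucose transporter Slc2a2 (1.67-fold, adjusted p = 0.034) and the monocarboxylate transporter Slc16a7 (1.5-fold, adjusted p = 0.0406). Slc37a4 held without any 1 array, Pfkfb3 without ZT1 replicate 3 alone, and the others were lost without each. Ppp1r3c, which brings a phosphatase to glycogen, was 2.84-fold lower (adjusted p = 0.0105, lost without ZT1 replicate 1, ZT1 replicate 2 or ZT13 replicate 2), and of the other 15 measured glycogen genes 8 lay apart and higher without passing. Stat5b, a mediator of growth hormone signalling, was 1.66-fold lower (adjusted p = 0.0324, lost without each array). With Igfbp1 it made 2 falls and 0 rises among 19 genes of insulin and growth hormone signalling (median 0.04). Of the 19, 6 lay apart and higher and 3 apart and lower.

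Of 41 measured genes of amino acid breakdown and the urea cycle, 3 fell and 0 rose. These were Kynu of the kynurenine pathway (1.51-fold), and Amdhd1 (1.54-fold) and Hal (1.47-fold), which both act in histidine breakdown. Their adjusted p was between 0.0348 and 0.0451, and each call was lost without each array. Over all probe sets, 0.866% were called lower and 0.532% higher. The list did not move one way: 10 of the 41 lay apart and higher and 10 apart and lower (median -0.01). Among 34 genes of drug metabolism the calls were Por and Cyp2a4 (2.09-fold higher, adjusted p = 0.0111, lost without ZT1 replicate 2, ZT1 replicate 3 or ZT13 replicate 1). Cyp2a4 is nearly identical to Cyp2a5, and probes on this array may not tell them apart. Heme and NAD genes had Nampt and Alas1 as rises and 0 falls among 20, with 4 apart and higher and 3 apart and lower (median -0.02). Of 22 autophagy and lysosome genes Bnip3, a mitophagy receptor, was called (1.88-fold higher, adjusted p = 0.00646, lost without ZT1 replicate 2 or ZT1 replicate 3), and of 28 cell cycle genes Wee1, Ccne1 and Rrm2 rose and Cdkn1a fell. Ccne1, a cyclin, was at least 2.08-fold higher and not detected at ZT1 (lost without ZT1 replicate 2, ZT1 replicate 3, ZT13 replicate 1 or ZT13 replicate 2), and Rrm2, which supplies deoxynucleotides, 1.99-fold (lost without each).

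The genes of the ribosome, the respiratory chain and the proteasome had no call by limma. Of 70 ribosomal protein genes, 2 lay apart and higher and 2 apart and lower, and 0 had an unadjusted p under 0.05 (range -0.22 to 0.30 on the log2 scale). Oxidative phosphorylation, with 64 genes, ranged from -0.25 to 0.18, with 2 apart and higher, 7 apart and lower, 0 called and 1 at an unadjusted p under 0.05. Of 31 proteasome subunits 0 passed, 3 had an unadjusted p under 0.05, 2 lay apart and higher and 8 apart and lower. Of 31 measured genes of ribosome biogenesis, 20 lay apart and higher at ZT13, against 8.61% of all probe sets, and 1 apart and lower (median 0.25). None of these 31 passed limma's test, with 17 at an unadjusted p under 0.05. The highest were Rrn3, an initiation factor of RNA polymerase I (624 ± 68.8 at ZT13 and 388 ± 76.8 at ZT1, adjusted p = 0.121), and the nucleolar protein Wdr43 (749 ± 126 and 480 ± 29; SD, n = 3 each; adjusted p = 0.104). Over all 24261 probe sets, 8.61% lay apart and higher, 11.2% lay apart and lower and 3118 had an unadjusted p under 0.05. Endoplasmic reticulum folding genes had 8 of 29 apart and lower and 1 apart and higher, interferon genes 9 of 27 apart and lower and 1 apart and higher, antioxidant genes 5 of 20 apart and higher and 4 apart and lower, and acute phase genes 1 of 23 apart and higher. These 4 lists held 4, 10, 5 and 0 genes at an unadjusted p under 0.05, and their one call was Mx2, an antiviral GTPase (at least 1.6-fold lower, adjusted p = 0.0476, lost without each array, detected on 1 of 6 arrays).

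**Figure D4:**
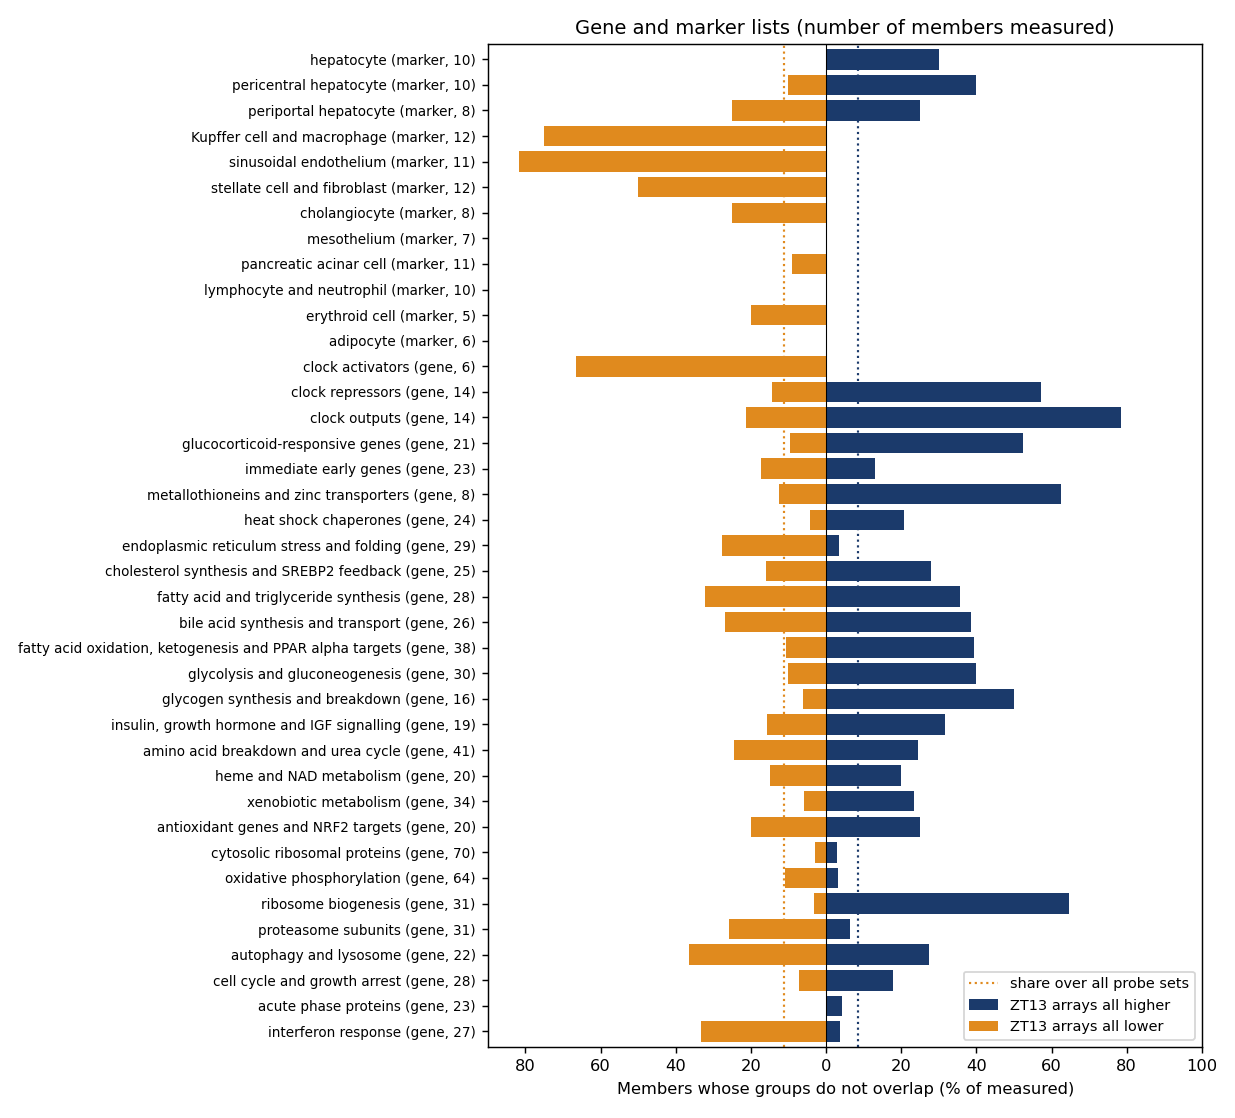
For each list, the share of measured members (%) whose 3 ZT13 arrays all lay above (blue, right) or all lay below (orange, left) the 3 ZT1 arrays, with the number measured in the label. The dotted lines give the shares over all probe sets, 8.61% higher and 11.2% lower, and the longest bars to the right are clock outputs (11 of 14) and ribosome biogenesis (20 of 31), to the left sinusoidal endothelium (9 of 11) and Kupffer cell markers (9 of 12).

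Most markers of Kupffer cells, sinusoidal endothelium and stellate cells had lower means at ZT13, although none of them passed. Over all probe sets, 11.2% lay apart and lower. Of 12 Kupffer cell and macrophage markers, 12 had a lower mean and 9 lay apart and lower, with a median of -0.45 on the log2 scale and a summed signal of 3415 to 4917 at ZT13 and 5625 to 5870 at ZT1. Of 11 markers of sinusoidal endothelium 9 lay apart and lower (median -0.37, summed signal 4598 to 4773 at ZT13 and 5670 to 6298 at ZT1), and of 12 stellate cell and fibroblast markers, 10 with a lower and 2 with a higher mean, 6 (median -0.22, summed signal 4881 to 5324 at ZT13 and 5998 to 7017 at ZT1). Of these 35 markers 0 passed limma's test and 23 had an unadjusted p under 0.05, against 3118 of all 24261 probe sets. The lowest adjusted p was 0.0944 for Csf1r among the Kupffer, 0.0816 for Clec4g among the endothelial and 0.0659 for Ecm1 among the stellate markers, and 1, 0 and 5 markers of the 3 lists were not detected on any array. In TSR liver the medians of the same lists between ZT13 and ZT1 were 0.06, 0.11 and 0.02. In whole liver, fewer cells of a type and less RNA per cell cannot be told apart. Of 10 hepatocyte markers 0 were called and 1 had an unadjusted p under 0.05, with a median of 0.04 and a summed signal of 74381 to 79199 at ZT13 and 74660 to 75681 at ZT1. Of 10 pericentral markers 0 were called and 3 had an unadjusted p under 0.05. Among periportal markers Cdh1 and Hal were called lower (2 of 8), both calls lost without any 1 array. The list did not move one way: 5 of the 8 had a higher mean, 2 lay apart and higher and 2 apart and lower (median 0.01). Cholangiocyte markers, of which 2 of 8 lay apart and lower, had a summed signal of 1561 to 1819 at ZT13 and 2016 to 2096 at ZT1. Pancreatic acinar markers, of which 8 of 11 were not detected on any array, had a summed signal of 558 to 732 at ZT13 and 547 to 798 at ZT1, and their one call was Try4 (1 of 11), itself not detected on any array. Markers of mesothelium, lymphocytes and neutrophils, erythroid cells and adipocytes held 0 calls, with 1 of 28 at an unadjusted p under 0.05. The part of the cell types in the falls of single genes was not tested.

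The remaining large falls were of several kinds, and each held without any 1 array. Depp1, a target of FoxO factors, read 479, 297 and 380 at ZT13, against 1637, 2580 and 2181 at ZT1 (5.55-fold lower, adjusted p = 0.00618). Dhrs9, a retinol dehydrogenase, was not detected at ZT13 and at least 5.35-fold lower (61.0 ± 7.68 at ZT13 and 331 ± 74.3 at ZT1; SD, n = 3 each; adjusted p = 0.00358), and its promoter window also holds TAGGTCA. Rnf125, a ubiquitin ligase, read 918, 740 and 893 at ZT13, against 3185, 4197 and 3802 at ZT1 (4.38-fold lower, adjusted p = 0.00178). The water channel Aqp8 was 4.31-fold lower (243 ± 44.8 at ZT13 and 1043 ± 174 at ZT1, adjusted p = 0.00469), and Dtx4, another ubiquitin ligase, 3.72-fold (150 ± 4.84 and 558 ± 9.64; SD, n = 3 each; adjusted p = 0.000417) with the smallest standard error of the 10 largest falls.

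In TSR mice, measured on arrays separate from those of the controls, most probe sets called in control liver differed less between ZT13 and ZT1. The TSR liver arrays were numbered 3, 6 and 11 at ZT13 and 1, 4 and 7 at ZT1, mixed over these times. The control arrays were numbered in blocks by time. In the differences between TSR and control liver, array order and TSR thus cannot be told apart. Of the 339 probe sets called in control liver, 308 (90.9%) had the same sign in TSR liver, against 55.9% of all probe sets, and 305 had a smaller difference there, with a median ratio of TSR to control difference of 0.498. Since the control difference chose these probe sets, a smaller value in other arrays follows in part from the choice. Over all probe sets, the median log2 difference was 0.11 in TSR and -0.015 in control liver. In a fit of TSR and control arrays together, 1484 probe sets were called between ZT13 and ZT1 in TSR liver. That fit holds more arrays than the one behind the 339, so the counts cannot show which contrast is larger. Npas2 differed by -2.14 in TSR and -4.43 in control liver on the log2 scale, Ciart by 2.86 and 4.79, Dbp by 1.93 and 3.83, Usp2 by 1.65 and 3.52, Arntl by -1.80 and -2.94, and Elovl3 by -1.21 and -3.24. The median of TSR minus control over all probe sets was 0.12 on the log2 scale, and 0.0048 after quantile normalization of the arrays. Each value of TSR minus control below stands beside that shift and kept its sign under quantile normalization.

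The difference between TSR and control liver was tested itself (limma, interaction over 12 arrays), and 14 probe sets (0.0577%) for 12 genes passed, 3 with a positive and 11 with a negative value. Per1 read 465, 283 and 465 at ZT13 and 310, 312 and 370 at ZT1 in TSR liver, so the TSR times overlapped, and every TSR array lay below the control ZT13 and above the control ZT1 arrays. Its TSR minus control value was -2.61 ± 0.26 SE (adjusted p = 0.00973), and the call was lost in 1 of 12 fits, without control ZT1 replicate 2. Lpin1 (-1.51 ± 0.18 SE), Noct (-1.88 ± 0.27 SE) and the leucine-rich protein Tsku (-1.20 ± 0.15 SE) also had smaller differences in TSR than in control liver (adjusted p between 0.0162 and 0.0391). Rbm3 differed in sign. Its 3 probe sets differed by -0.49 to -0.48 in TSR and by 1.05 to 1.06 in control liver (adjusted p = 0.0162).

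With 1 of the 12 arrays left out, this test made 0 to 13 calls, with 0 without control ZT1 replicate 2 and 1 without TSR ZT1 replicate 2, TSR ZT13 replicate 2, control ZT1 replicate 3 or control ZT13 replicate 3. The counts were 2 without TSR ZT1 replicate 1 or control ZT13 replicate 1, 6 without control ZT1 replicate 1 or control ZT13 replicate 2, and 7 without TSR ZT1 replicate 3. At an unadjusted p under 0.05 the interaction gave 2882 probe sets.

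**Figure D5:**
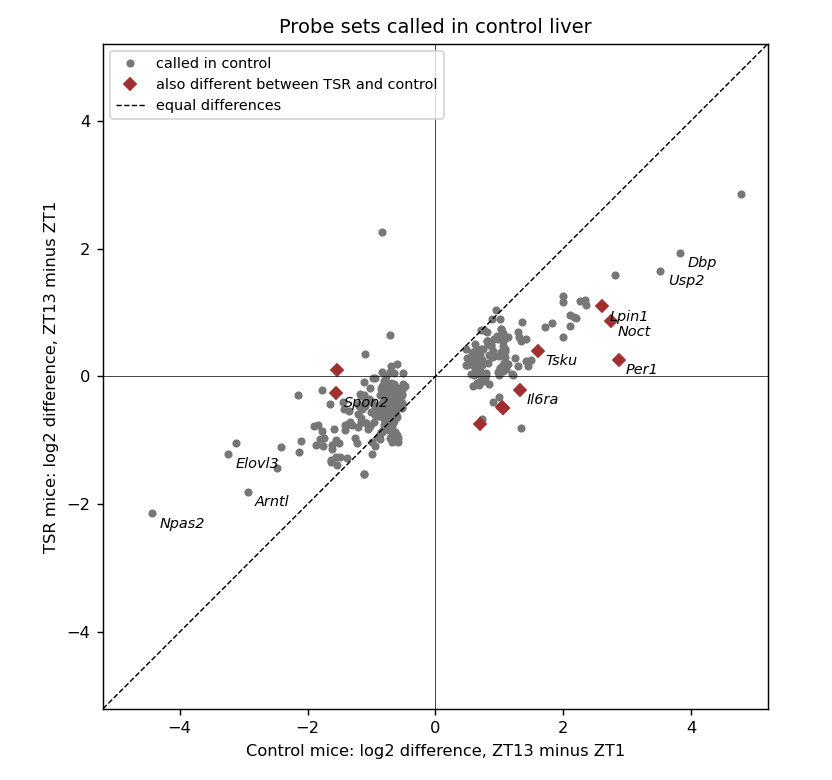
For the 339 probe sets called in control liver, the log2 difference ZT13 minus ZT1 in TSR mice (y axis) is set against that in control mice (x axis), with the dashed line marking equal differences and diamonds marking the 11 that also differed between TSR and control. Most points (305) lie closer to 0 in TSR than in control, and Per1 and Il6ra lie near 0 in TSR.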

How the data were processed

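RNA of whole liver was hybridised by the authors to Affymetrix Mouse Gene 1.0 ST arrays, 1 mouse an array, and the deposited values are intensities per probe set, normalized over the arrays with d-Chip by the authors. The sources used here give neither the d-Chip version nor its settings. The authors' detection calls of the 6 arrays compared were used for bounds and an alternative filter. Their detection p-values and group calls and the white adipose tissue arrays were not used. How the normalization and its steps act on dim probe sets is not known from the signals alone.

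Signals under 1 were set to 1 and log2 was taken. Of 28815 probe sets, 24261 with a gene symbol were kept, of which 19810 symbols were current, 3315 were updated through RefSeq (2211 by accession, 1104 by synonym), 45 named several genes and 1091 were not matched and kept as given. ZT13 and ZT1 were compared with limma 3.58.1 (lmFit and eBayes, R 4.3.3) on the 6 arrays without covariates, with p-values adjusted by Benjamini-Hochberg over all 24261, and TSR minus control with an interaction on 12 arrays. The steps were tested on simulated data. In gene lists the brightest probe set stood for a gene. Groups that lie apart are those whose 3 and 3 arrays do not overlap. An exact permutation test of 3 against 3 cannot go below p = 0.1 and was not used.

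The text names the 4 marker genes, all members of the clock lists, the 10 largest rises and the 10 largest falls among called probe sets whose groups did not overlap and whose higher group's mean was above 97.4, at most 4 members of each other list by smallest adjusted p, and the 10 smallest adjusted p of TSR minus control. Any other gene was chosen after its values were seen, and a few results that fall under the rule are not reported here. The comparison, the members and the lists were chosen with earlier results of these data known. Alternatives covered the filter, the arrays in the fit, the normalization, the offset, the variance model, array weights, the methods' t-test, a replicate block and leaving out each array. Promoter windows are from RefSeq (GRCm38.p6).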

Additional observations from a re-analysis of the deposited data

Results flagged for a closer look

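The difference between ZT13 and ZT1 differed between TSR and control liver for 14 probe sets by limma's interaction test (Benjamini-Hochberg adjusted p between 0.00973 and 0.0391), and these are given here as log2 values of TSR minus control. The value was -2.61 for Per1, -1.88 for Noct, -1.51 for Lpin1 and -1.20 for the leucine-rich protein Tsku, all of which had a positive difference in both TSR and control liver.

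For Rbm3 it was -1.55, -1.54 and -1.53 on 3 probe sets, with a brightest signal of 1264, 1080 and 1171 in TSR at ZT13 and 1656, 1823 and 1468 in TSR at ZT1. In TSR liver the ZT13 arrays thus lay below the ZT1 arrays, and in control liver above them. The interleukin 6 receptor gene Il6ra had -1.53, with a difference of -0.21 in TSR and 1.32 in control liver. Phf11c (-1.44), with -0.74 in TSR and 0.70 in control liver, and Nfxl1 (-2.34), with -1.41 and 0.93, also had opposite signs.

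Zfp942 had -1.15, nearly all of it from TSR liver (-1.33, against -0.19 in control). The positive values were 1.64 for Loxl4, a lysyl oxidase, 1.29 for the matrix protein Spon2 and 0.98 for the tetraspanin Tspan7. Loxl4 differed by 0.10 in TSR and -1.54 in control liver and was not detected on any control ZT13 array (at least 2.92-fold lower there).

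Il6ra, Spon2, Tspan7 and Nfxl1 were chosen after their values were seen. Of the 12 fits that each left out 1 array, Per1 was called in 11, Lpin1 in 6, Rbm3 in 5, Loxl4 in 4, Tsku in 3 and the others in 0 or 1.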

How the results depend on the processing

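Under every alternative run, each named gene with a called difference between ZT13 and ZT1 kept its direction. The count of 339 called probe sets was 1145 among the 12803 with a mean signal above the median, 610 among the 12803 detected on all 3 arrays of a group, 775 with all 12 control arrays in the fit, 725 with all 24 liver arrays, 564 with log2 of the signal plus 16, 1120 with a trended prior variance, 535 with array quality weights and 143 (3331 at an unadjusted p under 0.05) with the methods' t-test after Benjamini-Hochberg. It was 419 after quantile normalization and 339 both on the series' value table and without probe sets of several symbols. With 1 array left out it was 71 to 124. Of 64 called probe sets among the named ones, 58 to 64 stayed called under these settings, except 31 under the methods' t-test and 36 to 42 with 1 array left out.

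The 14 calls of TSR minus control were 76 above the median signal, 30 with 24 arrays, 26 with the signal plus 16, 19 after quantile normalization and 0 to 13 with 1 array left out. The replicate numbers are not stated to pair mice. The deviations of same-numbered arrays correlated at -0.11, -0.02 and -0.22, and those of differently numbered arrays at -0.28 to 0.36. Deviations from a mean of 3 arrays are tied to each other, so these values cannot decide on a pairing. With the number as a block, 37 probe sets were called between ZT13 and ZT1 (20 higher, 17 lower; 2437 at an unadjusted p under 0.05), with 26 of the 64 named calls, and 1 for TSR minus control. For probe sets not detected at their dimmer time the fold is written as at least, and 22 of the 339 were not detected on any array.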

Other observations

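The lists below were written after the values were seen, so their counts are descriptions and carry no test. Of 28 measured genes of cell junctions, 6 fell and 0 rose at ZT13 and 5 had a higher mean, with 15 apart and lower and 1 apart and higher (median log2 difference -0.16, 11 at an unadjusted p under 0.05). Over all probe sets, 11.2% lay apart and lower and 8.61% apart and higher, and 0.866% were called lower and 0.532% higher. Cldn1, a claudin of tight junctions, read 608, 573 and 687 at ZT13, against 2043, 1946 and 1791 at ZT1 (3.10-fold lower, limma's adjusted p = 0.00178), and held without any 1 array. The tight junction scaffold Tjp3 was at 129 ± 13.2 at ZT13 and 264 ± 2.26 at ZT1 (SD, n = 3 each; adjusted p = 0.00835). The calls of Tjp3, Cdh1, Nectin1 and Ocln were lost without 3 or more of the 6 arrays, each left out in turn, and Ocln was not detected on any array.

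Genes of choline and ethanolamine phospholipids were divided, with 1 of 20 called higher and 4 lower, against 0.532% and 0.866% of all probe sets. Of the 20, 4 lay apart and higher and 6 apart and lower (median log2 difference -0.05). Chka, the choline kinase, was at 212 ± 45.9 at ZT13 and 652 ± 89.5 at ZT1 (SD, n = 3 each; 3.10-fold lower, adjusted p = 0.0108), while Gpcpd1, which releases choline from glycerophosphocholine, was at 2477 ± 302 and 1082 ± 221 (SD, n = 3 each; adjusted p = 0.0303). The choline transporter Slc44a1, the phosphatase Phospho1 and the ethanolamine phosphotransferase Selenoi differed by -0.84, -1.21 and -0.65 on the log2 scale. Of 10 polyamine genes, Amd1 and Srm, which supply and use decarboxylated S-adenosylmethionine, were 1.86-fold and 1.62-fold higher and 0 were lower. In this list 3 lay apart and higher and 1 apart and lower (median 0.05). Of 25 peroxisomal genes, Pex26 was higher and Crot, Hacl1, Pxmp4 and Acnat1 were lower by 1.43-fold to 1.79-fold. The list as a whole did not fall: 15 of the 25 had a higher mean, with 4 apart and higher and 4 apart and lower (median 0.04). Each call of these 3 lists was lost without 3 or more of the 6 arrays, each left out in turn.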
